A study of Mus musculus with 7 samples.

Results

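The genes described here encode the mitochondrial respiratory chain: subunits of complexes I to V, the electron carrier cytochrome c, 2 assembly factors of complex I, 1 mitochondrial tRNA and citrate synthase, a matrix enzyme often used as a measure of mitochondrial content. They were chosen by the start of their gene symbol (Nduf, Sdh, Uqcr, Cox4 to Cox8, Atp5 and mt-, with Cycs, Cyc1 and Cs added), and 45 of the 9294 genes tested met that rule. Symbols of pseudogenes were left out, and each gene is represented by the probe with its highest mean. Of the 45, 18 belong to complex I by symbol, 2 to complex II, 4 to complex III, 9 to complex IV and 7 to complex V. No filter on low values was used, so all 45 were tested. Respiratory chain genes whose symbols are not named below were not analysed here.

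Total RNA came from 2 fat depots of wild-type (WT) male mice of strain C57. Paracardial fat, the fat beside the heart (pCF), was measured on 4 Affymetrix arrays and intra-abdominal fat (iVF) on 3, and the labels call each a biological replicate. The labels give neither the age of the mice nor whether each sample came from its own animal, so a p-value here refers to the variation among these 7 arrays, which may in part be technical. The deposited values are on a log2 scale, on which a difference of 1 is a doubling if the scale is calibrated, which the sources used here do not show. All differences are paracardial minus intra-abdominal.

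The respiratory chain passes electrons from NADH (through complex I) and succinate (through complex II) by way of ubiquinone to complex III, cytochrome c and complex IV, which reduces oxygen. Complexes I, III and IV pump protons across the inner mitochondrial membrane, and complex V, the ATP synthase, uses the resulting gradient to make ATP. White adipocytes hold few mitochondria, and brown adipocytes hold many and let protons back in through the uncoupling protein Ucp1. Most subunits are encoded in the nucleus, and several subunits of complex IV have a second form made in heart, skeletal muscle or brown fat.

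The 7 arrays did not all match their label of fat equally. The median over 9 measured adipocyte markers was 6.14, 6.26, 9.92 and 9.73 in paracardial samples 1 to 4, against 15.03, 14.95 and 16.38 in intra-abdominal samples 1 to 3, with 1 array per sample. On paracardial arrays 1 and 2 it lay close to the median of all probes on the same arrays, 6.07 and 6.0, so the defining markers of fat were low there. A list of 6 thymic epithelial genes ran the other way, with medians of 11.31, 11.03, 11.42 and 11.93 on the paracardial arrays and 8.11, 6.39 and 5.37 on the intra-abdominal arrays. Paracardial array 4 and intra-abdominal array 3 also stood apart from the other 5 arrays, with the highest maximum (19.93 on both, against 19.81 to 19.84) and the lowest 5th percentile (3.99 and 4.0, against 4.38 to 4.44). They are called the array set below. Over the lists of cell type markers, the adipocyte list (9 of 12 measured) had 6 genes lower in paracardial fat past the test and summed levels of 55.9 to 95.5 on the paracardial and 129.5 to 143.8 on the intra-abdominal arrays. The endothelial list had 2 of 3 lower, the thymic epithelial list 4 of 6 higher (sums of 58.9 to 66.2 against 32.3 to 45.9), and the lists of thymocytes and of T and NK cells 2 of 4 and 2 of 3 higher. None of the markers measured for B cells (3), macrophages (4), fibroblasts (2), brown adipocytes (6), heart muscle (1) or skeletal muscle (1) passed. In bulk tissue, fewer cells of a type and less RNA per cell cannot be told apart.

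No respiratory chain gene passed the test between the depots. At an adjusted p under 0.05 (limma, Benjamini-Hochberg over all genes), 0 of 45 were called, while 9.16% of all genes tested were called. At an unadjusted p under 0.05, 3 of the 45 were found (Cs, Sdhc and Cox7a2l), or 6.67%, beside 24.4% of all genes. The depots did not overlap in 2 of the 45, Sdhc and Cox7a2l, beside 26.7% of all genes. In the direction of lower values in paracardial fat 0 of the 45 were called, beside 2.91% of all genes, and in the other direction 0, beside 6.25%. Differences of at least 1 in size were measured in 8 of the 45, or 17.8%, beside 28.4% of all genes.

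Of the 45 differences 27 (60%, beside 39.4% of all genes) were below 0 and 18 above, with a median of -0.23 and a range from -2.58 (Cs) to 1.19 (Cox7a2l). The median over all genes was 0.133, and it was -0.0052 once each array's own median had been subtracted, a step that set the respiratory chain median at -0.37. The adipocyte markers had a median difference of -7.19 on the same arrays. The respiratory chain median stayed below 0 in 6 of the 7 cases in which 1 array was left out. It was 0.14 when intra-abdominal array 3 was left out, and also 0.14 when paracardial arrays 1 and 2, those with low adipocyte markers, were left out. The call depended on the setting for 8 genes. With a term for the array set 5 of the 45 passed (11.1%, beside 17.8% of all genes), namely Sdhc, Cs, Ndufv3, Cox7a2l and Ndufs8. Cyclic loess gave 4 (Sdhc, Ndufa9, Ndufa12 and Ndufv3, beside 11.2% of all genes), quantile normalization applied again 3 (Sdhc, Ndufa9 and mt-Tk, beside 9.12%), centring the arrays 1 (Sdhc, beside 9.82%) and the 5 arrays outside the array set 1 (Cs, beside 10.1%). With the dimmest 25% of genes dropped 1 of the 43 genes left passed (Sdhc, beside 13.6% of all genes), and with the dimmest 50% dropped 1 of 41 (Sdhc, beside 19.5%). For 8 of the 45 genes (17.8%, beside 31.1% of all genes) the 95% interval of the difference lay within -1 to 1, namely Cox4i2, Cox6a2, Cox7a2, Ndufa1, Ndufaf7, Ndufb5, Ndufs1 and Uqcrfs1. For the other 37 the arrays could not exclude a difference of that size.

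**Figure D1:**
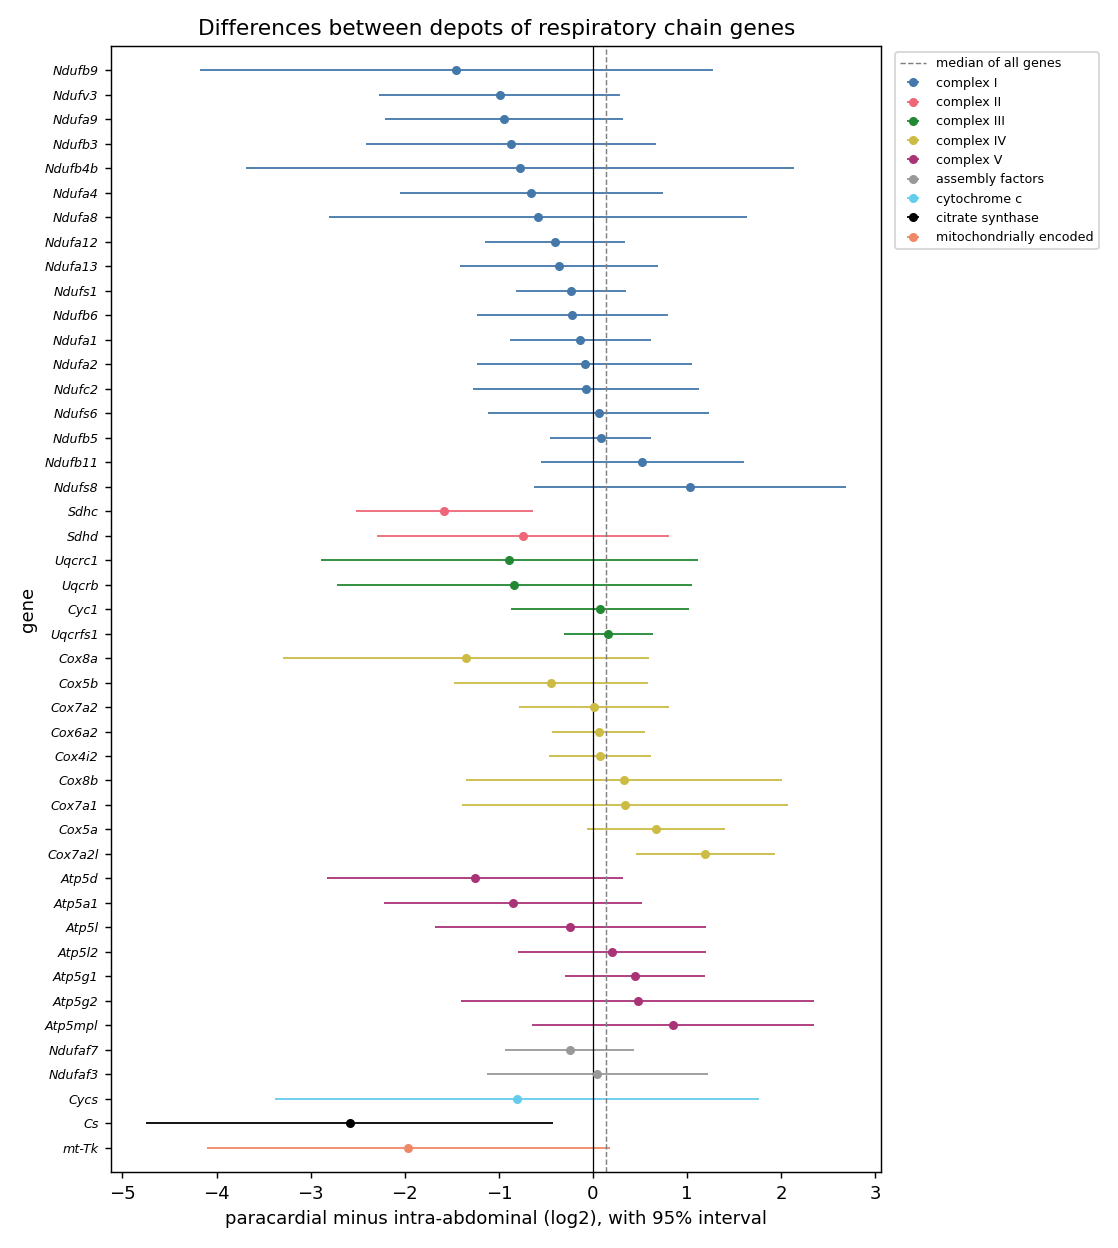
Difference of each of the 45 genes (horizontal axis, paracardial minus intra-abdominal, log2; point) with its 95% interval (line), in blocks by complex, with 0 as a solid and the median of all genes as a dashed line. The intervals of Sdhc, Cox7a2l and Cs do not reach 0, and those of the other 42 genes do.

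What the genes shared was a pattern across arrays that crossed the depots. Paracardial array 4 held the highest value of its depot for 39 of the 45 genes, beside 44.1% of all genes. Intra-abdominal array 3 held the highest value of its depot for 42 of the 45, beside 46.4% of all genes. Both held for 39 genes, or 86.7%, beside 29.8% of all genes, and the 6 exceptions were Atp5g1, Cox4i2, Cox6a2, Cox7a2, Cox7a2l and mt-Tk.

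With each gene's mean over the 7 arrays set to 0, the median of the 45 genes was -0.50, -0.65, -0.01 and 0.76 across the paracardial arrays, in the order 1 to 4, and -0.24, -0.15 and 0.81 across the intra-abdominal arrays. The same median over all genes stayed between -0.11 and 0.08. The arrays that stood highest were therefore the array set, 1 in each depot, and the lowest were paracardial arrays 1 and 2. The 75th percentile of all probes was also highest on the array set. It was 9.09 against 8.11 to 8.66 in paracardial fat, and 8.40 against 8.02 and 8.21 in intra-abdominal fat. The 45 genes were bright, with array medians of 8.45 to 10.02 against 5.99 to 6.37 for all probes. Whether other genes as bright share the pattern was not tested. Markers of some other cell types, but not of all, were also highest on the array set, and their part in the pattern was not tested. The median of 4 macrophage markers was 7.36, 6.90, 8.26 and 9.74 on the paracardial arrays and 9.10, 8.63 and 12.70 on the intra-abdominal arrays, with the highest value of each depot on the same arrays. That of 2 fibroblast markers was 5.72, 5.45, 7.17 and 8.49 on the paracardial arrays and 8.37, 8.52 and 11.45 on the intra-abdominal arrays. The summed log2 level ran from 29.67 to 41.86 on the paracardial and from 35.46 to 50.16 on the intra-abdominal arrays for the macrophage list (4 of 6 markers measured), and from 10.90 to 16.99 and from 16.74 to 22.90 for the fibroblast list (2 of 5 measured). The median of 3 endothelial markers (of 5 listed) was 5.49, 5.44, 6.77 and 7.35 on the paracardial and 10.19, 10.15 and 12.79 on the intra-abdominal arrays, with sums of 16.5 to 21.5 and 29.3 to 36.7. Unlike the respiratory chain medians, these endothelial medians did not overlap between the depots. Medians of the thymocyte, B cell and thymic epithelial markers were highest on paracardial array 4 in that depot. In intra-abdominal fat they were instead lowest on array 3, at 5.71, 5.43 and 5.37. The scale has no zero, so no marker is at 0. The median of each of the 5 pathway lists described below was highest on paracardial array 4 and intra-abdominal array 3 in their depots. Among the 3 regulators measured, Tefm was highest on these arrays. In intra-abdominal fat Yy1 was instead lowest on array 3 (8.92) and Twnk highest on array 2 (5.55). For the 5 measured genes of the TCA cycle list the median was 8.33, 8.78, 8.82 and 9.88 on the paracardial and 9.38, 9.35 and 10.44 on the intra-abdominal arrays.

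**Figure D2:**
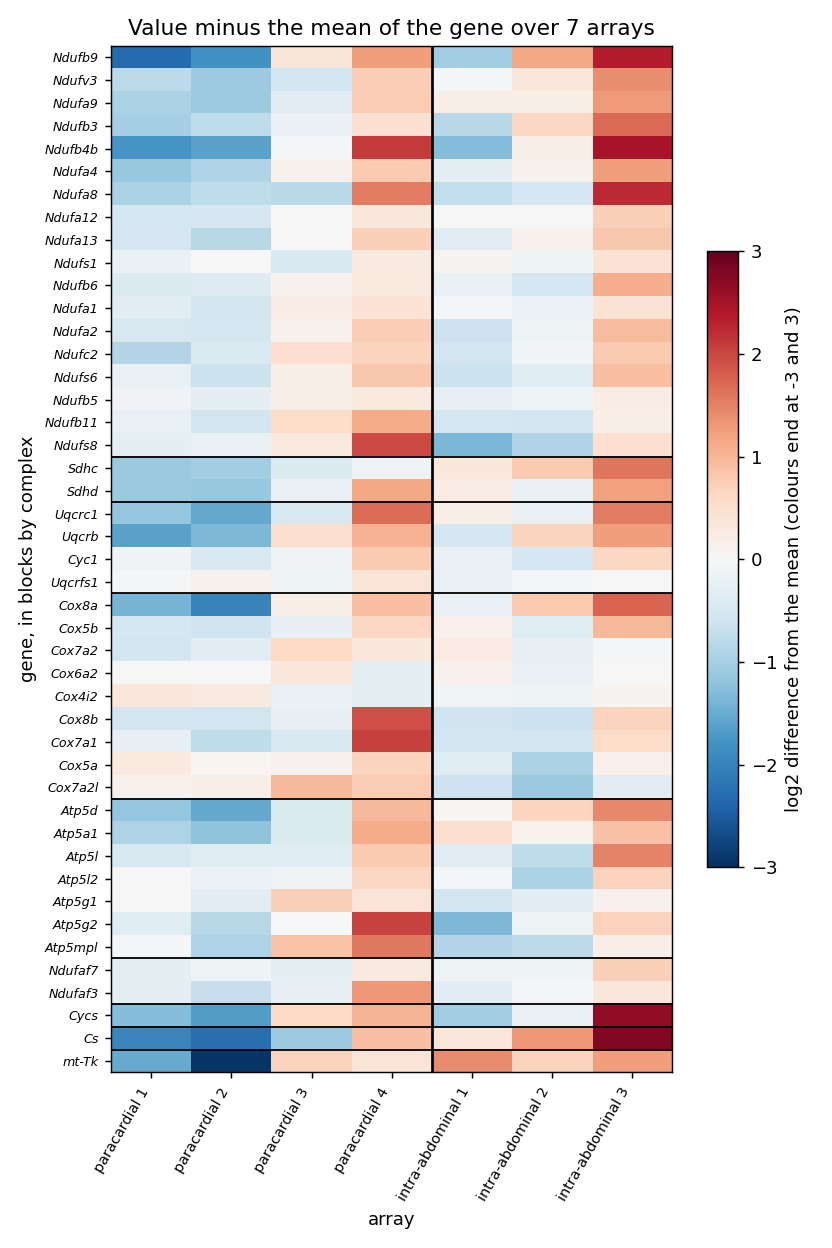
Value of each of the 45 genes on each array minus the mean of that gene over the 7 arrays (colour, log2), with the paracardial arrays left of the vertical line and the genes in blocks by complex in the order I, II, III, IV, V, assembly factors, cytochrome c, citrate synthase and tRNA. In 39 of the 45 rows paracardial array 4 and intra-abdominal array 3 are both the highest of their depot.

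**Figure D3:**
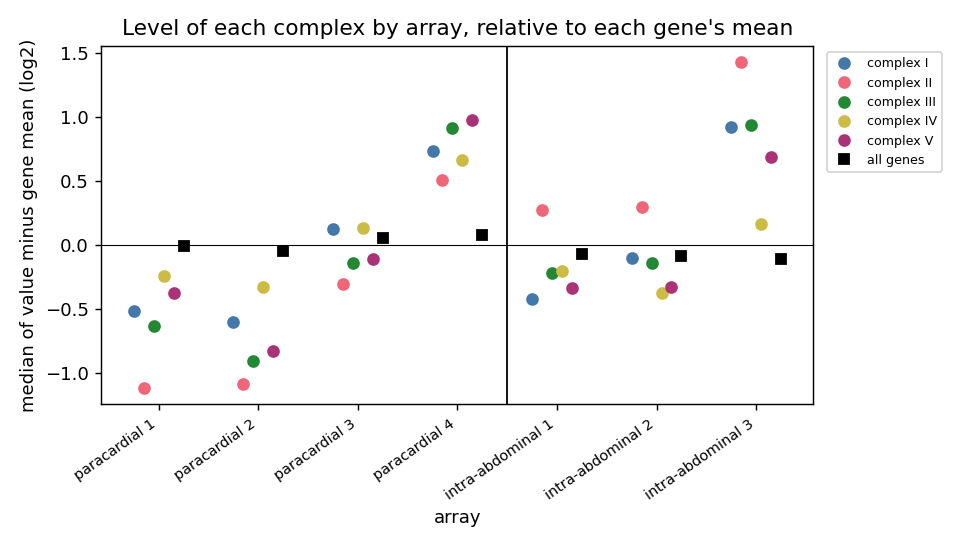
Median over the genes of each complex (circles) and over all genes (squares) of the value minus the gene's own mean (vertical axis, log2), by array, with the paracardial arrays left of the line. All 5 complexes lie above 0 on paracardial array 4 and on intra-abdominal array 3, and the median of all genes stays between -0.11 and 0.08.

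Complex I, the NADH dehydrogenase, had 14 of 18 differences below 0 and a median of -0.30, and none passed the test (lowest adjusted p = 0.33, limma). The median kept its sign in 17 of 19 alternatives and was 0.13 when intra-abdominal array 3 was dropped and 0.11 when paracardial arrays 1 and 2 were. Ndufb9, an accessory subunit of the membrane arm, had 11.96, 12.44, 14.63 and 15.52 on paracardial arrays 1 to 4, against 13.22, 15.42 and 16.62 on intra-abdominal arrays 1 to 3. The depots overlapped and each spanned more than 3 units, and the difference was -1.45 ± 1.14 (SE). It was -0.69 when intra-abdominal array 3 was left out, -2.39 when intra-abdominal array 1 was, -0.89 when paracardial array 1 was and -0.016 without paracardial arrays 1 and 2. Ndufv3, an accessory subunit of the NADH-oxidising module, had 8.76, 8.45, 8.97 and 10.27 on the paracardial and 9.50, 9.87 and 10.94 on the intra-abdominal arrays. Only paracardial array 4 reached into the intra-abdominal range, and the difference was -0.99 ± 0.54 (adjusted p = 0.33, limma), which was -0.57 without intra-abdominal array 3.

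Ndufs8, which carries iron-sulphur clusters on the path of the electrons to ubiquinone, had the largest positive difference of complex I. Its values were 10.42, 10.45, 10.98 and 12.66 on the paracardial arrays, against 9.31, 9.77 and 11.19 on the intra-abdominal arrays. Intra-abdominal array 3 lay above 3 of the 4 paracardial arrays, and the difference was 1.03 ± 0.69 (adjusted p = 0.44, limma). Within the array set it was 1.47, and within the other 5 arrays, where the depots did not overlap, it was 1.07 (adjusted p = 0.082, limma). With the array set as a block the adjusted p was 0.023. Without paracardial array 4 the difference was 0.52 (adjusted p = 0.59, limma), and it was 0.64 when intra-abdominal array 1 was dropped and 1.59 when array 3 of that depot was. Ndufb11, an accessory subunit encoded on the X chromosome, had 7.15, 6.83, 7.93 and 8.49 on the paracardial and 6.84, 6.81 and 7.57 on the intra-abdominal arrays, a difference of 0.53 ± 0.45.

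The catalytic core of complex I was measured in Ndufs1 and Ndufs8. Ndufs1, the large iron-sulphur subunit, differed by -0.23 with a 95% interval of -0.82 to 0.35. Among the accessory subunits, Ndufa9 (-0.94), Ndufb3 (-0.87), Ndufb4b (-0.78), Ndufa8 (-0.58), Ndufa12 (-0.41) and Ndufa13 (-0.36) had the next largest negative differences. Ndufb6 (-0.22), Ndufa1 (-0.14), Ndufa2 (-0.09), Ndufc2 (-0.08), Ndufs6 (0.06) and Ndufb5 (0.08) lay closer to 0. Ndufa4 is named for complex I and is known today as a subunit of complex IV. It had 10.65, 10.87, 11.90 and 12.57 on the paracardial and 11.51, 11.90 and 13.04 on the intra-abdominal arrays, a difference of -0.65 ± 0.59.

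The 2 assembly factors, which help to build complex I and are not part of it, had small measured differences. For Ndufaf3 the 95% interval was wide, from -1.13 to 1.22. Ndufaf7, a methyltransferase that acts on a core subunit, had 5.23, 5.37, 5.21 and 5.77 on the paracardial and 5.35, 5.37 and 6.21 on the intra-abdominal arrays (-0.25 ± 0.29). Ndufaf3 had 6.18, 5.78, 6.23 and 7.77 on the paracardial and 6.13, 6.41 and 6.80 on the intra-abdominal arrays (0.05 ± 0.49). The depots overlapped for both.

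Complex II, succinate dehydrogenase, oxidises succinate in the TCA cycle and feeds the electrons to ubiquinone, and both measured genes encode its membrane anchors. Sdhc had 6.92, 6.99, 7.61 and 7.88 on paracardial arrays 1 to 4, against 8.34, 8.81 and 9.64 on intra-abdominal arrays 1 to 3. No paracardial value reached the lowest intra-abdominal one. The means were 7.35 ± 0.47 (SD, n = 4) and 8.93 ± 0.66 (SD, n = 3), and the difference was -1.58 ± 0.40 (SE) with a 95% interval from -2.52 up to -0.63. At 0.057 its adjusted p (limma) was just above the threshold, and the difference was -1.76 within the array set and -1.40 within the other 5 arrays. Its adjusted p was under 0.05 in 6 of 19 alternatives, with 0.011 after cyclic loess and 0.016 where the array set was a block. It was 0.055 to 0.163 when 1 array was left out and 0.278 without paracardial arrays 1 and 2.

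Sdhd had 7.67, 7.65, 8.59 and 9.95 on the paracardial arrays, against 9.01, 8.59 and 10.02 on the intra-abdominal arrays. Paracardial array 3 equalled intra-abdominal array 2, and array 4 lay within the intra-abdominal range. The difference was -0.74 ± 0.65 (adjusted p = 0.55, limma). It was -0.83 within the 5 arrays outside the array set and -0.07 within the array set.

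Complex III, the cytochrome bc1 complex, had 2 differences below 0 and 2 above. Uqcrc1, a core subunit, had 9.15, 8.78, 9.83 and 11.98 on the paracardial and 10.52, 10.10 and 11.85 on the intra-abdominal arrays (-0.89 ± 0.84). Paracardial array 4 held the highest of the 7 values and arrays 1 to 3 the 3 lowest, and the difference was -1.06 within the 5 arrays and 0.13 within the array set. With 1 array left out it was -1.57 to -0.37, the extremes without paracardial array 4 and without intra-abdominal array 3. Uqcrb, a small subunit near the ubiquinone site, had 11.00, 11.25, 13.11 and 13.65 on the paracardial and 12.11, 13.28 and 13.86 on the intra-abdominal arrays (-0.83 ± 0.79).

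The catalytic subunits of complex III that were measured had smaller differences than Uqcrc1 and Uqcrb, a contrast that was not tested. The 95% interval of Cyc1 was -0.88 to 1.02. Cyc1, the haem protein cytochrome c1, had 8.33, 7.98, 8.31 and 9.21 on the paracardial and 8.20, 7.91 and 9.05 on the intra-abdominal arrays, a difference of 0.07 ± 0.40. Uqcrfs1, the Rieske iron-sulphur protein, had 6.39, 6.58, 6.30 and 6.84 on the paracardial and 6.24, 6.39 and 6.46 on the intra-abdominal arrays. Its difference was 0.16 with a 95% interval of -0.31 to 0.64. The depots overlapped for both.

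Cytochrome c, Cycs, carries electrons from complex III to complex IV. It had 9.84, 9.46, 11.75 and 12.16 on the paracardial arrays, against 10.10, 10.92 and 13.80 on the intra-abdominal arrays, a difference of -0.80 ± 1.08. The probe used is numbered for chromosome 19, while the RefSeq table places Cycs on chromosome 6, and a dimmer probe numbered for chromosome 6 gave -0.42. Cycs has near-identical processed copies, so the locus that gave the signal is uncertain.

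Complex IV, cytochrome c oxidase, had 2 of 9 differences below 0 and a median of 0.07, which was -0.064 with the arrays centred on their medians and -0.090 without paracardial array 4. Cox7a2l, a protein that links complexes III and IV into supercomplexes, had 8.88, 8.93, 9.72 and 9.51 on paracardial arrays 1 to 4, against 8.13, 7.64 and 8.42 on intra-abdominal arrays 1 to 3. All 4 paracardial arrays lay above all 3 intra-abdominal arrays. The means were 9.26 ± 0.42 (SD, n = 4) and 8.06 ± 0.40 (SD, n = 3), and the difference was 1.19 ± 0.31 (SE) with a 95% interval from 0.46 up to 1.93. Its adjusted p (limma) was 0.062. It was 0.035 with the array set as a block and 0.053 to 0.207 in the other 18 alternatives, with a difference of 0.84 to 1.55 over all 19. C57BL/6 mice are known to carry a short, unstable form of this protein, and the labels give the strain only as C57.

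Cox5a and Cox5b encode nuclear subunits that surround the catalytic core. Cox5a had 9.70, 9.46, 9.54 and 10.07 on the paracardial and 9.05, 8.46 and 9.57 on the intra-abdominal arrays. Only intra-abdominal array 3 reached into the paracardial range, and the difference was 0.67 ± 0.31 (adjusted p = 0.25, limma). Cox5b had 8.49, 8.43, 8.77 and 9.64 on the paracardial and 9.17, 8.65 and 10.02 on the intra-abdominal arrays, a difference of -0.45 ± 0.43.

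**Figure D4:**
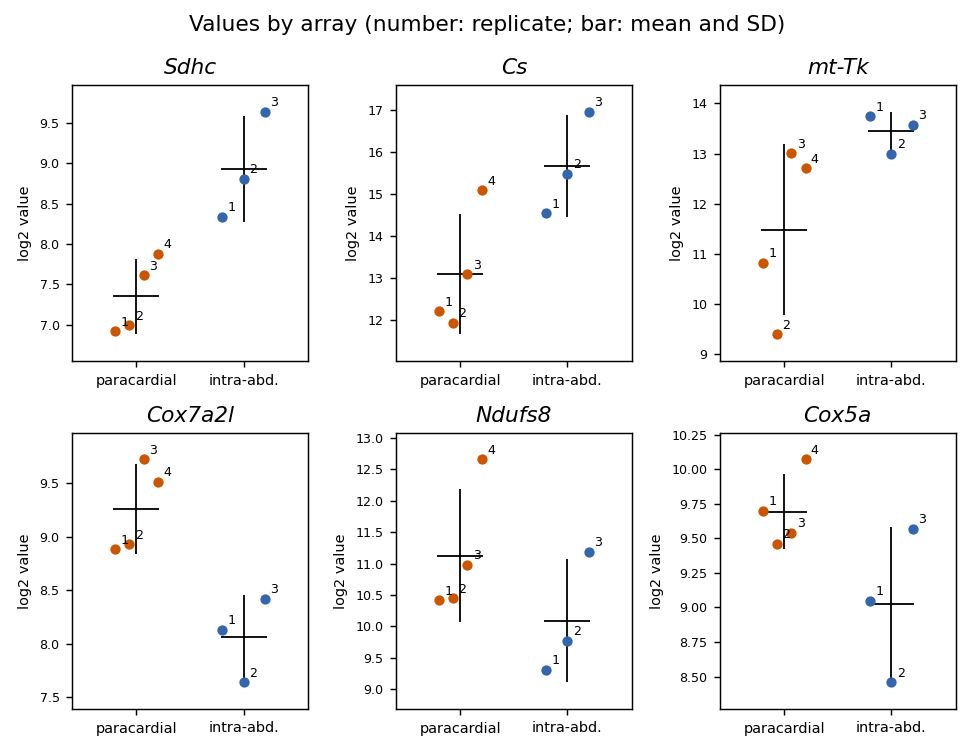
Log2 values (vertical axis, a separate range in each panel) of 6 genes on the paracardial arrays (left) and the intra-abdominal arrays (right), with the replicate number beside each point and the mean with SD as a black bar. The depots do not overlap for Sdhc, with the paracardial arrays below, or for Cox7a2l, with the paracardial arrays above, and they overlap for Cs, mt-Tk, Ndufs8 and Cox5a.

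Of the tissue forms of complex IV subunits, Cox8b and Cox7a1 had their highest value on paracardial array 4. Cox6a2 and Cox4i2 had their lowest there (4.79 and 4.95). Cox8b, the form of subunit 8 made in heart, muscle and brown fat, had 4.37, 4.37, 4.67 and 6.86 on the paracardial arrays and 4.33, 4.28 and 5.58 on the intra-abdominal arrays. The values on paracardial arrays 1 and 2 and on intra-abdominal arrays 1 and 2 lay below the 5th percentile of their own array. Cox7a1, the corresponding form of subunit 7a, had 5.95, 5.44, 5.73 and 8.24 on the paracardial and 5.63, 5.61 and 6.75 on the intra-abdominal arrays. For both genes paracardial array 4 was the highest of the 7 and intra-abdominal array 3 the next. The differences were 0.33 ± 0.70 and 0.34 ± 0.73, and without paracardial array 4 they were -0.26 and -0.29.

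Ucp1, the uncoupling protein of brown adipocytes, had 13.92 on paracardial array 4 and 4.36 to 6.14 on the other 6 arrays. Over the whole brown adipocyte list (6 of 9 markers measured, Cox7a1 and Cox8b among them) the summed log2 level ran from 30.60 to 50.57 on the paracardial arrays and from 30.36 to 34.95 on the intra-abdominal arrays. Of the markers listed for heart muscle and for skeletal muscle 1 of 8 was measured each. Myl4 had 4.81 to 5.72 on the paracardial and 5.26 to 5.48 on the intra-abdominal arrays, and Acta1 had 5.65 to 6.06 and 6.16 to 6.97. The part of brown adipocytes or of muscle in the values of Cox8b and Cox7a1 was not tested. Cox6a2, the heart and muscle form of subunit 6a, had 5.06, 5.06, 5.39 and 4.79 on the paracardial and 5.17, 4.83 and 5.06 on the intra-abdominal arrays, and the depots overlapped.

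The widely expressed forms Cox8a and Cox7a2 had their highest value on other arrays. Cox8a had 10.00, 9.39, 11.58 and 12.29 on the paracardial and 11.19, 12.17 and 13.14 on the intra-abdominal arrays (-1.35 ± 0.81, adjusted p = 0.38, limma). Its 2 lowest values were those of paracardial arrays 1 and 2, without which the difference was -0.23. It was -0.86 without intra-abdominal array 3 and -0.88 without paracardial array 2. Cox7a2 had 9.63, 9.87, 10.80 and 10.50 on the paracardial and 10.45, 9.95 and 10.16 on the intra-abdominal arrays. Its difference was 0.01 with a 95% interval of -0.78 to 0.81. Cox4i2, the tissue form of subunit 4 known from lung and from responses to low oxygen, had 5.57, 5.50, 5.02 and 4.95 on the paracardial and 5.15, 5.09 and 5.32 on the intra-abdominal arrays (0.07 ± 0.23).

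**Figure D5:**
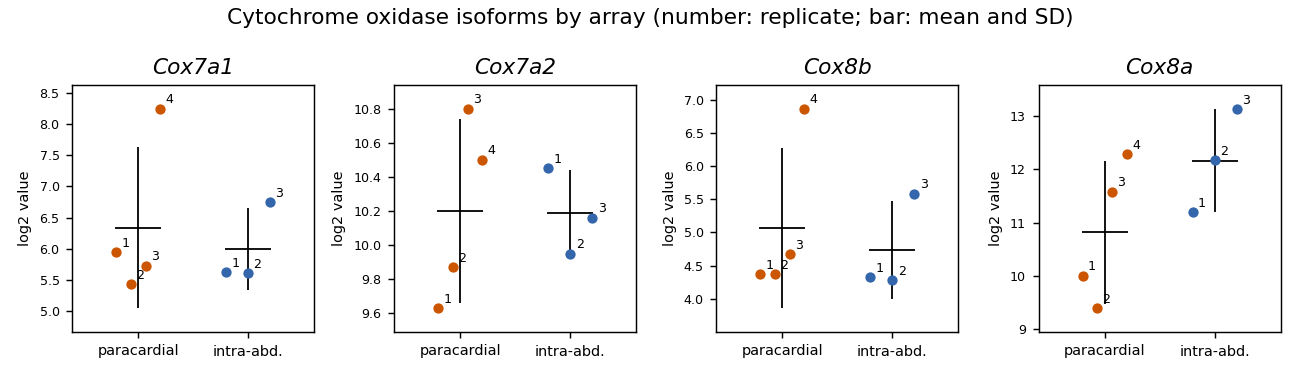
Log2 values (vertical axis, a separate range in each panel) of the tissue forms Cox7a1 and Cox8b and of the widely expressed forms Cox7a2 and Cox8a on the paracardial arrays (left) and the intra-abdominal arrays (right), with the replicate number beside each point and the mean with SD as a black bar. Cox7a1 and Cox8b reach 8.24 and 6.86 on paracardial array 4, above their other 6 values.

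Complex V, the ATP synthase, had 3 of 7 differences below 0 and a median of 0.20, which was -0.60 after quantile normalization was applied again, -0.45 after cyclic loess and -0.13, -0.07 and -0.22 without paracardial array 4, intra-abdominal array 1 or intra-abdominal array 2. In its catalytic head, Atp5a1 (subunit alpha) had 11.57, 11.30, 12.08 and 13.61 on the paracardial and 13.00, 12.60 and 13.38 on the intra-abdominal arrays. Paracardial arrays 1 to 3 had lower values than every intra-abdominal array and array 4 a higher one, and the difference was -0.85 ± 0.57 (adjusted p = 0.44, limma). Atp5d (subunit delta of the central stalk) had 6.38, 6.01, 7.13 and 8.53 on the paracardial and 7.60, 8.19 and 9.00 on the intra-abdominal arrays. Again only paracardial array 4 reached into the intra-abdominal range, and the difference was -1.25 ± 0.66 (adjusted p = 0.31, limma).

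The 4 positive differences of complex V were those of genes for its membrane part, with Atp5l2, described below, placed there by its symbol. Atp5mpl, a small proteolipid that copurifies with the enzyme, had 12.41, 11.55, 13.33 and 14.05 on the paracardial and 11.60, 11.69 and 12.68 on the intra-abdominal arrays (0.85 ± 0.63). Atp5g2, one of the genes for the proton-carrying subunit c, had 12.04, 11.59, 12.40 and 14.43 on the paracardial and 11.06, 12.27 and 13.10 on the intra-abdominal arrays (0.47 ± 0.79). Another gene for subunit c, Atp5g1, differed by 0.45 ± 0.31, and the depots overlapped for each of these genes.

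The other 2 genes encode subunit g, Atp5l (-0.24), and, by its symbol, a form of it, Atp5l2 (0.20). The probes used for Atp5g2 and Atp5l are numbered for chromosomes 7 and 5, while the RefSeq table places the genes on chromosomes 15 and 9. A second Atp5g2 probe, numbered for chromosome 15, gave 0.26. Across the array 99.3% of the probes carried the number of their gene's chromosome, so for these genes, as for Cycs, a copy elsewhere in the genome may have given the signal. For Atp5l2, with a probe numbered for chromosome 11, no RefSeq chromosome was available, so its locus could not be checked.

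Citrate synthase, Cs, which starts the TCA cycle by joining acetyl-CoA to oxaloacetate, had the largest difference of the 45. Its values were 12.21, 11.93, 13.09 and 15.10 on paracardial arrays 1 to 4, against 14.54, 15.49 and 16.97 on intra-abdominal arrays 1 to 3. Paracardial arrays 1 to 3 had lower values than every intra-abdominal array, and array 4 lay above intra-abdominal array 1. The difference was -2.58 ± 0.91 with a 95% interval of -4.75 to -0.42 (adjusted p = 0.137, limma). It was -2.61 within the 5 arrays outside the array set (adjusted p = 0.049, limma) and -1.87 within the array set. The adjusted p was 0.017 where the array set entered the model as a block. With 1 array left out the difference was -3.26 to -1.93 and the adjusted p 0.054 to 0.298 (limma). Without paracardial arrays 1 and 2, those with low adipocyte markers, the difference was -1.57 (adjusted p = 0.489, limma).

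The mitochondrial genome was represented by mt-Tk alone, the tRNA for lysine, which is not a subunit of the chain. It had 10.82, 9.39, 13.01 and 12.71 on the paracardial and 13.75, 13.00 and 13.58 on the intra-abdominal arrays. Paracardial arrays 1 and 2 lay below the other 5 arrays, and paracardial array 3 reached just into the intra-abdominal range. The difference was -1.96 ± 0.90 (adjusted p = 0.24, limma), and without paracardial arrays 1 and 2 it was -0.58.

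Outside the regulators described last, none of the other pathway genes measured passed the test over all arrays with no covariate. Of the 4 named here Higd2a, Pdhb and Slc25a20 passed with the array set as a block (adjusted p = 0.041, 0.018 and 0.024, limma), where 17.8% of all genes were called. Without intra-abdominal array 3 the differences of these 3 genes were -0.68, -0.65 and -0.47. Of 43 listed assembly factors outside the symbols above 13 were measured, none passed, 6 differences were below 0 and the median was 0.0041. The largest was that of Higd2a, a factor of complex IV and supercomplex assembly, at -1.80 (adjusted p = 0.35, limma). Of 16 listed TCA cycle and pyruvate dehydrogenase genes 5 were measured, all 5 differences were below 0 with a median of -1.15, and none passed. The largest was that of Pdhb, a subunit of pyruvate dehydrogenase, at -1.36 (adjusted p = 0.35, limma). Of 19 listed genes of ubiquinone synthesis and electron entry 2 were measured and neither passed. Both differences were below 0 with a median of -0.33, and the larger was that of Coq2 (-0.65). Of 15 carriers and membrane proteins 5 were measured, none passed, 3 differences were below 0 and the median was -0.36. The largest was that of Slc25a20, the carnitine carrier, at -1.51, while Slc25a5 (0.56) and Vdac3 (0.17) went the other way.

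Of 24 listed regulators of mitochondrial genes 3 were measured and 1 passed, Yy1, a zinc finger factor that binds promoters of many genes, those of mitochondrial proteins among them. Yy1 had 11.01, 10.88, 10.68 and 11.22 on the paracardial arrays, against 9.44, 9.37 and 8.92 on the intra-abdominal arrays, with no overlap. The difference was 1.71 ± 0.22 (adjusted p = 0.011, limma), where 6.25% of all genes were called higher in paracardial fat. It passed whichever single array was left out. It did not pass after cyclic loess (1.13, adjusted p = 0.054), after quantile normalization was applied again (1.21, 0.078), with the replicate number as a block (1.62, 0.058) or without paracardial arrays 1 and 2 (1.71, 0.108), all with limma. The 4 thymocyte markers measured were also higher in paracardial fat, with medians of 12.57, 12.03, 13.69 and 14.73 on the paracardial and 9.88, 6.84 and 5.71 on the intra-abdominal arrays. Their summed levels were 46.53 to 57.24 and 25.07 to 41.19. Within paracardial fat the order differed, as Yy1 was lowest on array 3, where the thymocyte median lay above those of arrays 1 and 2. The part of thymocytes in the difference of Yy1 was not tested.

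Because most of the genes moved together across arrays, their promoters were set side by side. RefSeq promoters (build GRCm38.p6, 250 bases before to 50 after the start of the gene) were matched for 33 of the 45 genes. Each was searched on both strands for 5 short motifs bound by factors known from mitochondrial or tissue-specific promoters, and shares are given beside those of all 27025 promoters. The motif of nuclear respiratory factor 1 (NRF1) was in 5 of 33 (15.2%, beside 4.78%), that of ETS factors such as GABPA, CCGGAAG, in 5 (15.2%, beside 9.12%), that of YY1, AANATGGC, in 6 (18.2%, beside 6.23%), that of estrogen-related receptors, TNAAGGTCA, in 1 (3.03%, beside 1.26%) and a TATA box, TATAAA, in 2 (6.06%, beside 14.2%). The median number of CG dinucleotides was 19 over the 33, beside 7 over all promoters.

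The promoters of 4 genes show the range. Sdhd holds 3 of the motifs, and Ndufs8 has the largest positive difference in complex I. Cox7a2l is one of the 6 exceptions to the shared array pattern, and Cox8b is the form of heart, muscle and brown fat. All 4 lie on the minus strand and are given 5′ to 3′ along the gene, with motif matches in capitals.
Sdhd, chr9:50603800-50604099: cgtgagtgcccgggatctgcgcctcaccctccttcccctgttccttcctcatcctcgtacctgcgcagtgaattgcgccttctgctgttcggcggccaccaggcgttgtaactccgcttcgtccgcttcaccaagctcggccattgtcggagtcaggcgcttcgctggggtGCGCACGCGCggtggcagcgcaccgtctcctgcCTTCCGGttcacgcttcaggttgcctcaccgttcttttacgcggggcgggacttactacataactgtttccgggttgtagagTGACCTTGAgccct
Ndufs8, chr19:3912725-3913024: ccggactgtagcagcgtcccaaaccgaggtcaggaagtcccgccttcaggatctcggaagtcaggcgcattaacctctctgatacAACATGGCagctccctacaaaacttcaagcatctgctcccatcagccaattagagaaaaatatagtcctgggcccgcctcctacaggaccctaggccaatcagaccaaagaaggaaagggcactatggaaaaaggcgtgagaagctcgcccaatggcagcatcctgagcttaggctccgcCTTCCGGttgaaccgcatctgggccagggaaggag
Cox7a2l, chr17:83514284-83514583: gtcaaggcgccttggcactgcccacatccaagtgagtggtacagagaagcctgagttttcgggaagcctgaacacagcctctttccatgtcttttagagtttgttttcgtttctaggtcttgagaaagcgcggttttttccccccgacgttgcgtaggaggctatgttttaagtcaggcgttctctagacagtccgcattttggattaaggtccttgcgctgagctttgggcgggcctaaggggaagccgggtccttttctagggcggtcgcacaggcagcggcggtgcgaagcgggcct
Cox8b, chr7:140900397-140900696: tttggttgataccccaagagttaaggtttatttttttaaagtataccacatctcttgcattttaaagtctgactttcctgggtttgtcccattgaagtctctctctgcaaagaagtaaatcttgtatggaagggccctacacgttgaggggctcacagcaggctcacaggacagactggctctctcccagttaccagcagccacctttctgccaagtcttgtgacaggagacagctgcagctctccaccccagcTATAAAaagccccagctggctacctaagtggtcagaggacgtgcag

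In the Sdhd window the capitals mark an NRF1 match that starts at -79, an ETS match on the opposite strand at -46 and a match to the motif of estrogen-related receptors, also on the opposite strand, at 37, counted from the start of the gene. The Ndufs8 window holds a YY1 match at -165 and an ETS match on the opposite strand at 16, the Cox8b window a TATAAA at 5, and the Cox7a2l window no match to any of the 5 motifs. The windows of Sdhd, Cox7a2l and Ndufs8 hold 29, 19 and 12 CG dinucleotides and that of Cox8b 2. A match says only that these letters occur in the window.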

How the data were processed

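The samples, 4 of paracardial and 3 of intra-abdominal fat, were each measured on 1 single-colour Affymetrix array. The authors deposited log2 values for 11949 probes, and per the submitters' processing notes RMA and Affymetrix Expression Console were used, with no version stated. Of the probes 9352 carried 1 gene symbol, 522 several and 2075 none, and the probe with the highest mean stood for each of 9294 genes.

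Depots were compared with limma 3.58.1 (R 4.3.3; lmFit and eBayes, 5 residual degrees of freedom), two-sided, with no covariate and Benjamini-Hochberg adjustment over all 9294 genes at 0.05. Tables and figures were made with Python 3.11.15, and the tests were checked on simulated data. Values on every array are given for the 2 largest differences in each direction per complex, the tissue forms, Cycs, Cyc1 and Cs. The genes, the 5 pathway lists, the 11 marker lists and the 19 alternatives were chosen with earlier results of these data known. The alternatives cover filters, normalization, probe choice, blocks and left-out arrays.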

Additional observations from a re-analysis of the deposited data

Results flagged for a closer look

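Paracardial array 4 stood far from the other 3 paracardial arrays for 3 of the 45 genes (Dixon's test on 4 values, 95% level), Atp5l, Cox8b and Ndufa8. Atp5l had 12.51 there, and the next highest paracardial value was 11.36. Cox8b had 6.86, and the next was 4.67. Ndufa8, an accessory subunit of complex I, had 9.93, and the next was 7.65. The 3 genes are 6.67% of the 45, beside 14.3% of all genes, and chance alone flags about 1 in 20. Both shares count a highest or lowest value on any of the 4 paracardial arrays, so the 14.3% is not the share for array 4 alone.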

How the results depend on the processing

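Of the 45 genes, the count past the test was 0 with all arrays and no covariate, and 0 in 12 of 19 alternatives. It was 1 (Sdhc) with the dimmest 25% or 50% of genes dropped (beside 13.6% and 19.5% of all genes) or the arrays centred on their medians (beside 9.82%), 3 (Ndufa9, Sdhc and mt-Tk) after quantile normalization was applied again and 4 (Ndufa12, Ndufa9, Ndufv3 and Sdhc) after cyclic loess. It was 5 (Cox7a2l, Cs, Ndufs8, Ndufv3 and Sdhc) with the array set as a block, where 17.8% of all genes were called, and 1 (Cs) within the other 5 arrays. Whichever 1 array was left out the count was 0, and the median difference was -0.39 to 0.14. The count over all genes was 851, and it was 1654 with the array set as a block, 196, 338 and 394 without paracardial replicate 1, 2 or 3, 185 without intra-abdominal replicate 2, 1 without paracardial arrays 1 and 2 and 0 with the replicate block (0 of 9294 genes, limma). Deviations from the depot means correlated at 0.048, 0.047 and -0.50 between arrays of equal replicate number. Over all pairs of arrays between depots the correlations ran from -0.50 to 0.49. With so few arrays per depot these values cannot show whether equal numbers share an animal. The block leaves paracardial array 4 without a partner, and with it 0 of the 45 genes passed and their median was -0.37. Single arrays also moved differences by over 1.5 times without turning the sign, in the genes named here among others. With 1 array left out, Atp5a1 was -1.34 to -0.57, Atp5mpl 0.44 to 1.28, Ndufa9 -1.33 to -0.58, Ndufb3 -1.53 to -0.27, Uqcrb -1.32 to -0.42, Sdhd -1.24 to -0.34 and mt-Tk -2.47 to -1.26. Likewise Ndufa4 was -1.01 to -0.21, Ndufa12 -0.58 to -0.17, Ndufa13 -0.65 to -0.06, Ndufb11 0.23 to 0.78 and Ndufs1 -0.36 to -0.09. Cox5a was 0.39 to 0.94, Cox5b -0.76 to -0.08, Atp5g1 0.27 to 0.64 and Uqcrfs1 0.06 to 0.24. For these genes and those below the cause was not tested. The sign turned after quantile normalization was applied again for Atp5g2 -0.60, Atp5l2 -0.51, Atp5mpl -0.21, Cox7a2 -0.52, Cyc1 -0.26, Ndufaf3 -0.16, Ndufb5 -0.054 and Ndufs6 -0.34. The sign turned after cyclic loess for Atp5g2 -0.20, Atp5l2 -0.45, Cox7a2 -0.56, Cyc1 -0.25, Ndufaf3 -0.062, Ndufb5 -0.035 and Ndufs6 -0.34. The sign turned with the replicate block for Atp5g2 -0.13, Cox7a1 -0.29, Cox7a2 -0.090, Cox8b -0.26, Cyc1 -0.18, Ndufaf3 -0.38, Ndufb5 -0.0037 and Ndufs6 -0.20. The sign turned within the 5 arrays outside the array set for Atp5l 0.14, Cox7a2 -0.10, Ndufa2 0.095, Ndufaf3 -0.20, Ndufb6 0.13 and Ndufc2 0.056. The sign turned without paracardial arrays 1 and 2 for Atp5l 0.079, Cox4i2 -0.20, Cycs 0.35, Ndufa1 0.25, Ndufa13 0.14, Ndufa2 0.38, Ndufa4 0.082, Ndufa8 0.022, Ndufb4b 0.57, Ndufb6 0.081, Ndufc2 0.55, Sdhd 0.063, Uqcrb 0.29 and Uqcrc1 0.085. The sign turned with the arrays centred on their medians for Cox4i2 -0.064, Cox6a2 -0.080, Cox7a2 -0.13, Cyc1 -0.068, Ndufaf3 -0.091, Ndufb5 -0.057 and Ndufs6 -0.077. The sign turned with the array set as a block for Ndufa2 0.0086 and Ndufc2 0.0085. With 1 array left out in turn, signs turned for Atp5g2 -0.13 to 0.95, Atp5l -0.68 to 0.44, Atp5l2 -0.22 to 0.60, Cox4i2 -0.028 to 0.18, Cox6a2 -0.045 to 0.15, Cox7a1 -0.29 to 0.72, Cox7a2 -0.19 to 0.20, Cox8b -0.26 to 0.76, Cyc1 -0.18 to 0.40, Cycs -1.56 to 0.29, Ndufa1 -0.30 to 0.049, Ndufa2 -0.43 to 0.35, Ndufa8 -1.17 to 0.37, Ndufaf3 -0.38 to 0.28, Ndufaf7 -0.39 to 0.038, Ndufb4b -1.66 to 0.23, Ndufb5 -0.017 to 0.22, Ndufb6 -0.54 to 0.26, Ndufc2 -0.39 to 0.29 and Ndufs6 -0.24 to 0.53, as the lowest to highest difference.

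The 7 arrays, with 5 residual degrees of freedom, limit the precision, and the deposited table holds no background or detection value, so how far a dim gene such as Cox8b stands above background is not known.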
